A study of Rattus norvegicus with 6 samples.

Results

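Collagens are secreted proteins built from 3 chains wound into a triple helix, and each chain has a gene of its own, named for its collagen type and chain number (Col1a1 encodes the alpha 1 chain of type I). The family was chosen with earlier results of these data known. Its genes were taken by symbol alone, as rows of the deposited expression table. The symbol had to consist of Col, a type number, the letter a and a chain number. This gave 42 genes of the 32623 in the table, each with 1 row. They comprise 10 fibrillar chains, which form the tension-bearing fibrils of connective tissue, the 6 chains of type IV, which form the network of basement membranes, 9 FACIT chains (fibril-associated collagens with interrupted triple helices), which sit on the surface of fibrils, and 17 others, among them the beaded filaments of type VI and the membrane-spanning types. Col1a2, Col6a3 and Col21a1 are not among the 42 and were not analysed here, so every sum and share of collagen FPKM below leaves them out.

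The first group is primary ventricular myocardial cells of Sprague-Dawley rats, 1 to 3 days old, that received a small interfering RNA against METTL3 (siMETTL3) for 24 h and then lipopolysaccharide (LPS, bacterial endotoxin) for 6 h, in 3 libraries. Its control, also 3 libraries, is the same cells with a negative-control RNA (siNC) and the same LPS. Both groups received LPS, so no value here is a response to it, and all cells came from 1 isolate pooled from several rats, so p-values measure the spread between these libraries, which may be technical. METTL3 is the enzyme that writes N6-methyladenosine on messenger RNA.

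In the heart the fibrillar collagens are made chiefly by fibroblasts, while basement membrane collagen surrounds each muscle cell and lines vessels and can come from several cell types. After synthesis the chains are hydroxylated, folded with the help of chaperones, trimmed at their ends outside the cell and cross-linked by lysyl oxidases. Types I and III make up most of the fibrillar collagen of the heart and accumulate in fibrosis.

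The libraries held 71202469 to 76668751 counts. Mettl3 measured 10.3 ± 0.355 FPKM in siMETTL3 cells and 16.9 ± 1.47 FPKM in siNC cells (SD, n = 3 each; FPKM is fragments scaled to transcript length and to the library's total), and was lower (log2 fold change -0.67, limma adjusted p = 0.00661). Markers of cardiomyocytes were abundant, as the label says: Myh6, the alpha myosin heavy chain, picked after its values were seen, measured 2459 ± 117 and 2303 ± 166 FPKM in siMETTL3 and siNC cells. RNA of genes used as markers of other cell types was measured too. A fibroblast list free of collagens summed to 233 to 261 FPKM in siMETTL3 and 320 to 335 FPKM in siNC libraries, an endothelial list to 22.6 to 23.9 and 20.3 to 23.2 FPKM, and a macrophage list to 40.9 to 52.9 and 78.2 to 96.0 FPKM. None of the markers of these 3 lists that the table names had a count of 0 in all libraries.

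The 4 stretches of sequence below lie before collagen genes and are shown because the genes behind them behaved differently: Col5a2 and Col8a2 were lower in siMETTL3 cells, Col18a1 was the only chain that was higher, and Col4a2 and Col4a1 are read in opposite directions from a shared stretch. They are RefSeq sequence of the rat build GRCr8, written 5′ to 3′ with the GC box GGGCGG, a binding motif of Sp1-type factors, or its reverse complement CCGCCC in capitals. The first 3 are the 150 bases before the annotated start on the gene's own strand (Col5a2, minus strand, chr9:55090152-55090301, Col8a2, plus strand, chr5:143870619-143870768, and Col18a1, plus strand, chr20:11473495-11473644). The last is the plus strand of the 76 bases that lie between the starts of Col4a2 and Col4a1 (chr16:84885521-84885596).
Col5a2: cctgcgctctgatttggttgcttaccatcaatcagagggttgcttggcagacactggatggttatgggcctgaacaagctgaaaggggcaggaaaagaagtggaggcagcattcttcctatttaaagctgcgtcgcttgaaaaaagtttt
Col8a2: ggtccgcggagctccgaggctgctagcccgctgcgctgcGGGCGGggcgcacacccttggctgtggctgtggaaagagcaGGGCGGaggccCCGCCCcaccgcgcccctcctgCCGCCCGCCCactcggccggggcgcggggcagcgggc
Col18a1: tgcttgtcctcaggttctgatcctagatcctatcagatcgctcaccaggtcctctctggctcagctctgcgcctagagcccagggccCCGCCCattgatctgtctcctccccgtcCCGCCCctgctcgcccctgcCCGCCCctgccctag
Col4a2-Col4a1: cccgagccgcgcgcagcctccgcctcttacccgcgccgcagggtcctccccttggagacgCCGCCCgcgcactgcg

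Levels of the 42 chains differed widely, and a few of them held most of the summed collagen FPKM. The 7 chains that averaged 100 FPKM or more held 86.8% of the summed collagen FPKM, and in order they were Col1a1 (974 FPKM), Col4a1 (492), Col4a2 (336), Col6a2 (130.1), Col3a1 (129), Col6a1 (119) and Col5a2 (113). Col6a2, Col3a1 and Col6a1 changed places between the groups: Col3a1 was the highest of them by mean in siNC cells (166 FPKM) and the lowest in siMETTL3 cells (92.5 FPKM). Another 7 chains lay between 10 and 100 FPKM: Col18a1, Col5a1, Col12a1, Col4a4, Col4a5, Col5a3 and Col8a1. A further 12 had means of 1 to 10 FPKM, down to Col22a1 (1.13) and Col24a1 (1.06), which stood just inside the level needed for testing. Between Col1a1 and Col24a1 the mean levels differed 920-fold.

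**Figure D1:**
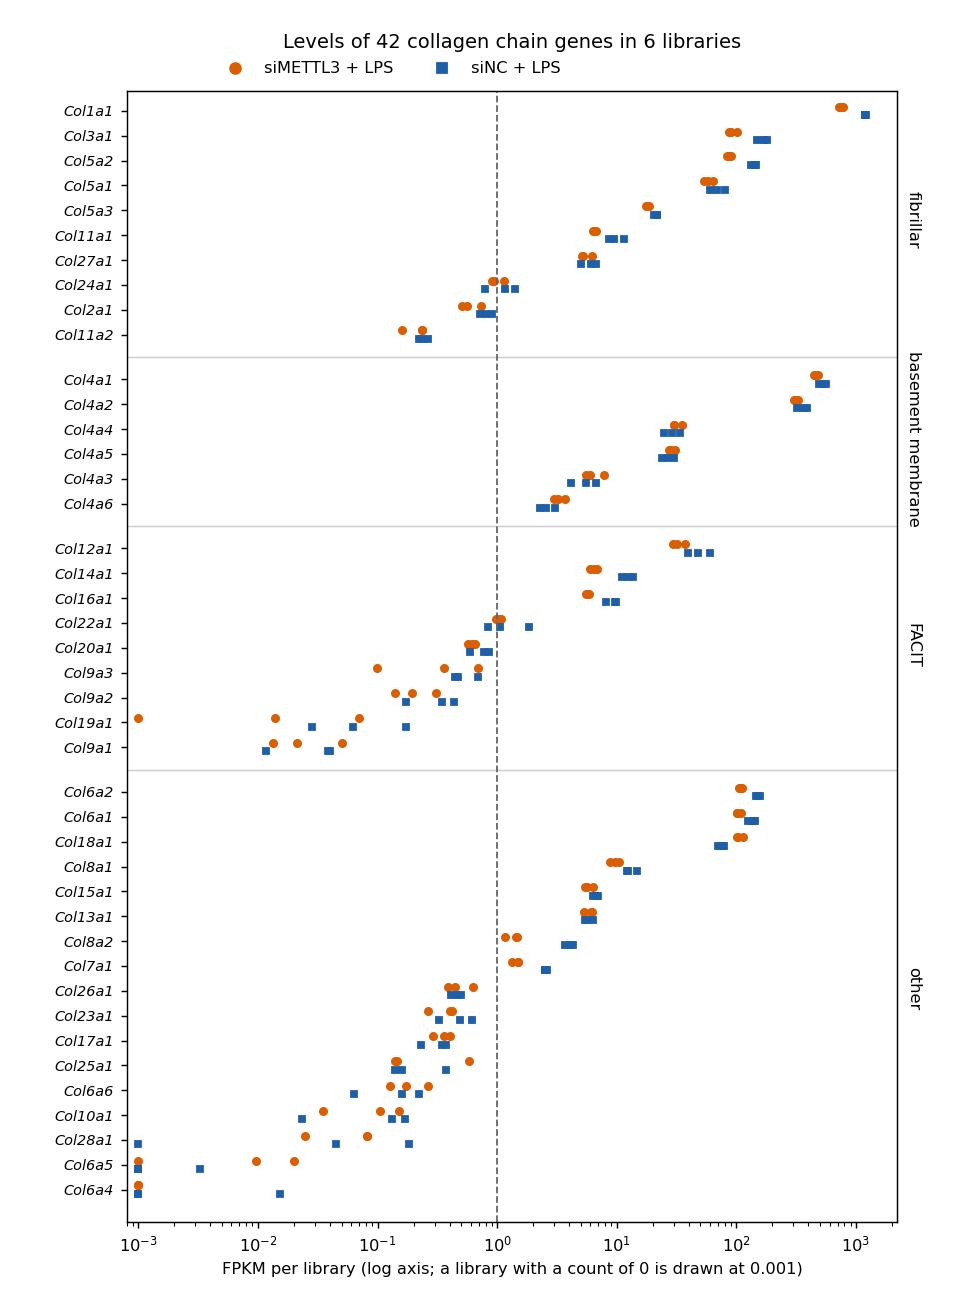
FPKM of each of the 42 chain genes in each library, on a log axis, grouped by class and ordered by mean, with siMETTL3 + LPS libraries as circles above siNC + LPS libraries as squares. The dashed line is 1 FPKM, the mean a gene needed to be tested. Col1a1, Col4a1 and Col4a2 are the highest, and 16 chains have means under 1 FPKM. The groups do not overlap for 16 of the 26 tested chains, Col1a1, Col3a1, Col5a2 and Col18a1 among them, and for 37.9% of all tested genes.

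The remaining 16 chains had means under 1 FPKM, held 0.161% of the summed collagen FPKM together and were not tested. They include the chains known best from cartilage: Col2a1 (0.602 ± 0.122 FPKM in siMETTL3 and 0.809 ± 0.0947 FPKM in siNC cells), the highest of the untested, the chains of type IX (Col9a3, Col9a2 and Col9a1, with overall means of 0.458, 0.265 and 0.0292 FPKM), Col11a2 (0.225) and Col10a1 (0.102). The membrane-spanning Col17a1, Col23a1 and Col25a1 averaged 0.334, 0.419 and 0.256 FPKM, the FACIT chains Col20a1 and Col19a1 averaged 0.679 and 0.0578 FPKM, and Col26a1 and Col28a1 averaged 0.472 and 0.0690 FPKM. Of the later-numbered type VI chains Col6a6 averaged 0.168 FPKM, and Col6a5 and Col6a4 had the lowest means of all 42: Col6a5 had 13, 0 and 6 counts in the siMETTL3 and 0, 3 and 0 in the siNC libraries, and Col6a4 had 8 counts in siNC replicate 2 and 0 elsewhere. With counting error alone, a 0 leaves room for 3 counts. Untested chains had at most 323 counts in a library, whereas tested ones had 249 to 545887.

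With the RNA against METTL3, the summed FPKM of the 42 chains was lower, and the fibrillar chains accounted for most of the difference. The 42 chains summed to 2171, 2329 and 2263 FPKM in siMETTL3 replicates 1, 2 and 3, against 3039, 2865 and 3183 FPKM in siNC replicates 1, 2 and 3. The 10 fibrillar chains summed to 977, 1049 and 1040.2 FPKM, against 1607, 1561 and 1663 FPKM, and type IV to 816, 882 and 827 FPKM, against 955, 868 and 1024 FPKM, in the same order of libraries. The fibrillar sums and their difference rested largely on Col1a1 (752 ± 30.2 FPKM in siMETTL3 and 1196 ± 17.6 FPKM in siNC cells). The FACIT chains summed to 43.2, 51.4 and 46.8 FPKM, against 72.3, 61.5 and 87.2 FPKM. The other chains summed to 335, 346 and 348 FPKM, against 404, 375 and 409 FPKM. The total, fibrillar, FACIT and other sums of the groups did not overlap, and the type IV sums did. Fibrillar chains therefore made up 45.0% to 46.0% of collagen FPKM in siMETTL3 libraries and 52.3% to 54.5% in siNC libraries, and type IV chains 36.6% to 37.9% and 30.3% to 32.2%. The FACIT chains took 1.99% to 2.21% in siMETTL3 and 2.15% to 2.74% in siNC libraries, which overlap. The other chains took 14.9% to 15.4% and 12.8% to 13.3%, which do not. In bulk samples such as these, fewer cells of a type and less RNA per cell cannot be told apart.

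**Figure D2:**
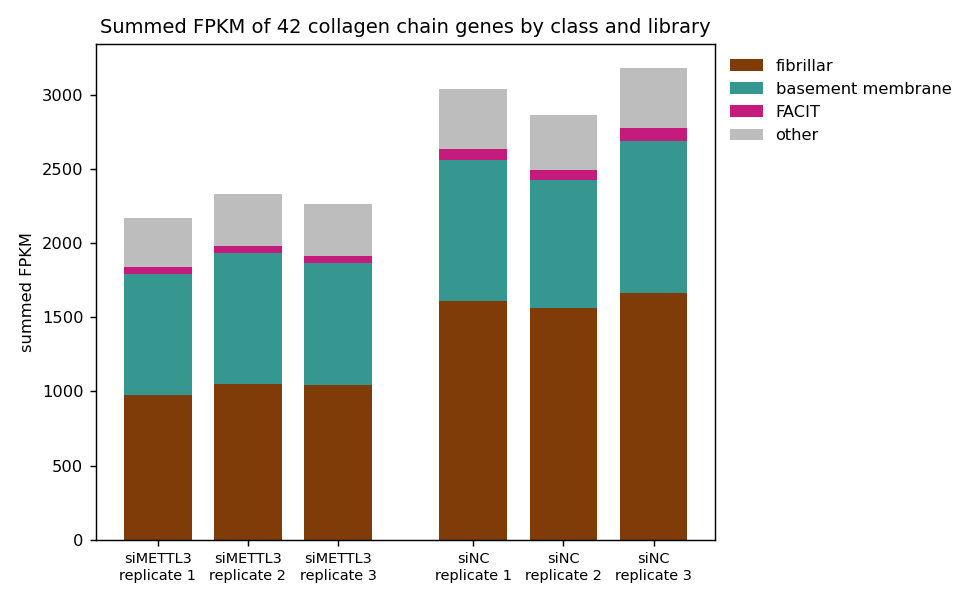
Summed FPKM of the 42 chain genes in each library, with siMETTL3 libraries on the left and siNC libraries on the right, stacked by class. The fibrillar segment is 977 to 1049 FPKM in siMETTL3 libraries, below the 1561 to 1663 FPKM of siNC libraries, while the type IV segments overlap (816 to 882 and 868 to 1024 FPKM).

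Tested chain by chain, 12 of the 26 chains with a mean of at least 1 FPKM were lower in siMETTL3 cells and 1, Col18a1, was higher (limma on log2(FPKM + 1), Benjamini-Hochberg adjusted p under 0.05 over all 13105 genes tested). Over all tested genes, 4.40% were called lower and 6.53% higher. That split of all genes, 576 lower and 856 higher, turned to 781 lower and 358 higher after median-ratio scaling of the libraries, under which the same 12 chains and Col18a1 were called. The 12 were 5 of 8 fibrillar chains, 0 of 6 type IV chains, 2 of 4 FACIT chains and 5 of 8 others. The median log2 fold change was -0.38 for the fibrillar, 0.12 for the type IV, -0.59 for the FACIT and -0.39 for the other chains, and -0.23 over all 26, beside 0.067 for all tested genes. In 20 of the 26 the fold change was below 0, as it was in 36.3% of all tested genes. The libraries of the groups did not overlap for 16 chains, 15 of them lower, where 37.9% of all tested genes did not overlap and 11.5% did so with lower siMETTL3 values. These counts of signs and overlaps come from FPKM that were not rescaled. After median-ratio scaling the median of all tested genes was 0.0058 instead of 0.067, and the counts were not repeated.

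The quasi-likelihood test of edgeR on the counts called the same 12 and also Col4a1 and Col12a1 lower, with Col18a1 again the only one higher. By that test 6.59% of all genes were lower and 3.39% higher, 9.98% in either direction. DESeq2 called 17 chains lower and Col18a1 higher, beside 10.6% and 7.72% of all genes. Leaving out siMETTL3 replicates 1, 2 and 3 in turn left 6, 8 and 9 chains called lower, and leaving out siNC replicates 1, 2 and 3 left 6, 10 and 10. Col1a1, Col3a1, Col5a2, Col14a1, Col6a2 and Col8a2 were called in all 6 of these fits.

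**Figure D3:**
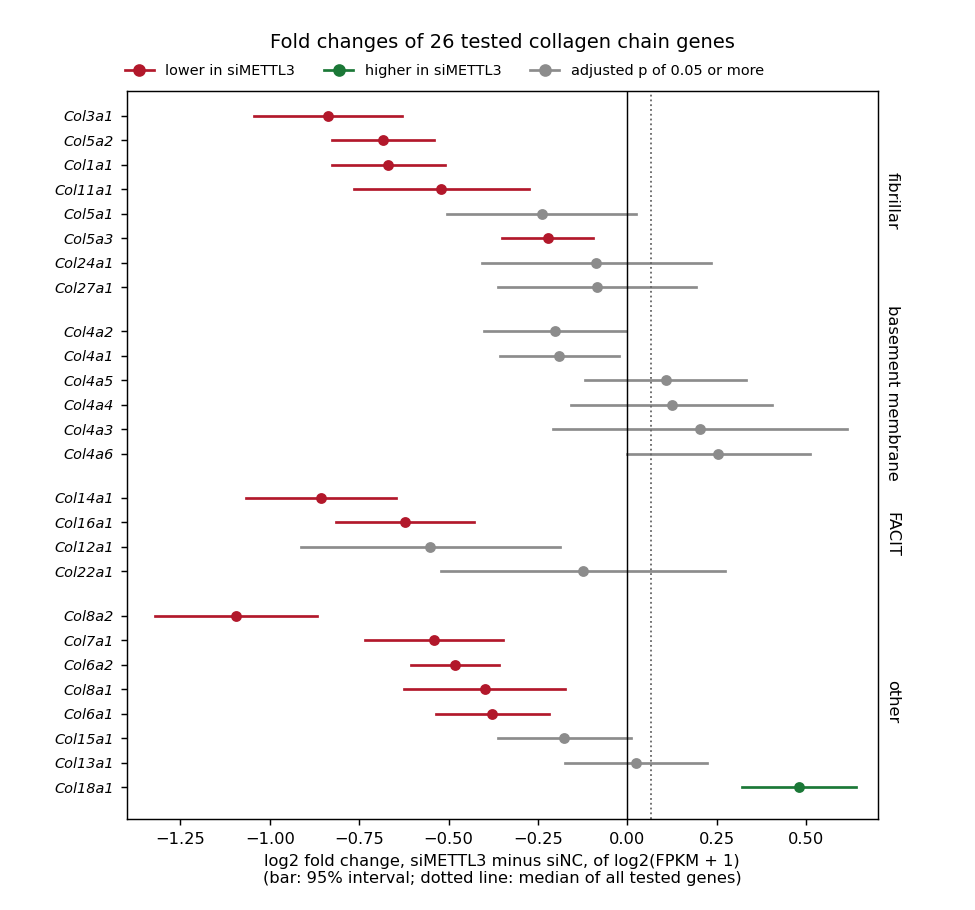
Log2 fold change of log2(FPKM + 1), siMETTL3 minus siNC, for each of the 26 tested chains, by class, with the 95% interval of the limma fit as a bar. Red chains were lower and the green chain higher at an adjusted p under 0.05, grey chains did not pass, and the dotted line is the median of all tested genes (0.067). The 8 fibrillar and 4 FACIT chains have estimates below 0, type IV chains lie on both sides of 0 and Col18a1 is at 0.48.

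Among the 8 tested fibrillar chains, Col1a1, Col3a1, Col5a2, Col5a3 and Col11a1 were lower, and the first 3 of these were called in every fit with 1 library left out. Col1a1, the alpha 1 chain of type I, the most abundant fibril collagen, measured 720, 779 and 758 FPKM in siMETTL3 replicates 1, 2 and 3, against 1188, 1183 and 1216 FPKM in siNC replicates 1, 2 and 3. Every siMETTL3 library was far below every siNC library, and the gap was many times the SD of either group (30.2 and 17.6 FPKM). The level was 62.9% of the control and the log2 fold change -0.67 (SE 0.067, limma adjusted p = 0.00558). The table places the gene (ENSRNOG00000003897) on the plus strand of chromosome 10, from 82745801 to 82762789. The build of its coordinates is not given in the sources used here.

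Col3a1, which forms type III, a homotrimer laid down in mixed fibrils with type I, measured 89.3, 87.1 and 101 FPKM in siMETTL3 and 169, 149.9 and 179 FPKM in siNC libraries. The groups did not overlap, and the chain stood at 55.7% of its control (log2 fold change -0.84, SE 0.087, limma adjusted p = 0.00571). Col5a2, a chain of type V, which starts fibrils and limits their width, measured 83.0, 86.0 and 90.2 FPKM in siMETTL3 and 142, 131 and 146 FPKM in siNC libraries, 61.9% of the control (-0.68, SE 0.060, limma adjusted p = 0.00417). The table lists both genes on chromosome 9, with 33.3 kb between them and their 3′ ends facing each other: Col3a1 on the plus strand from 52023295 to 52059217 and Col5a2 on the minus strand from 52092511 to 52238564.

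The other chains of type V differed less. Col5a3 measured 17.6, 17.8 and 18.7 FPKM in siMETTL3 and 21.7, 20.3 and 21.6 FPKM in siNC libraries, which did not overlap (85.0% of control, -0.22, SE 0.054, limma adjusted p = 0.0458). It was not called when any 1 library was left out (adjusted p 0.0790 to 0.149). Col5a1, the chain present in most type V molecules, measured 53.9, 64.2 and 58.3 FPKM in siMETTL3 and 68.7, 60.6 and 80.3 FPKM in siNC libraries. These overlap, and it did not pass (-0.24, 95% interval -0.50 to 0.025, limma adjusted p = 0.193).

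Col11a1, a chain of type XI, the cartilage relative of type V, measured 6.40, 6.68 and 6.38 FPKM in siMETTL3 and 9.40, 8.53 and 11.5 FPKM in siNC libraries, without overlap (66.2% of control, -0.52, SE 0.10, limma adjusted p = 0.0288). Without siNC replicate 2 or 3 it was still called (adjusted p = 0.0396 and 0.0383), but not without siNC replicate 1 (0.0892) or siMETTL3 replicate 1, 2 or 3 (0.0930, 0.0702 and 0.0771). Col27a1 and Col24a1, fibrillar chains with shorter triple helices, overlapped between the groups and did not pass. Their fold changes were -0.086 (95% interval -0.36 to 0.19) and -0.086 (-0.41 to 0.23).

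**Figure D4:**
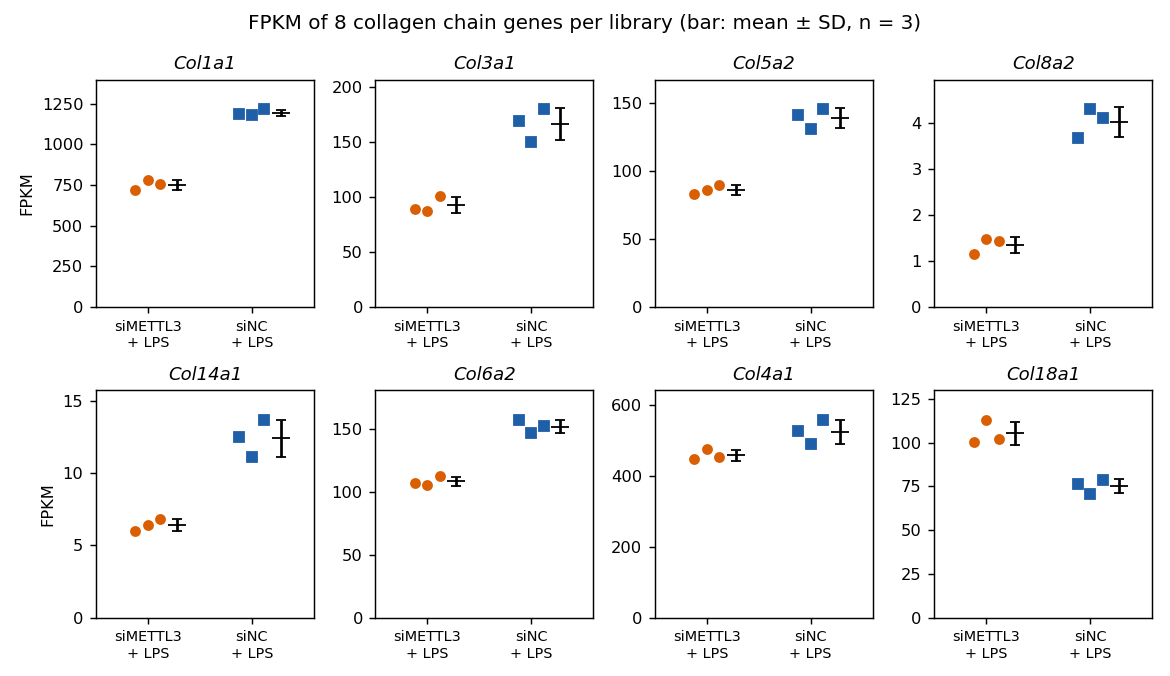
FPKM of 8 chains in each library, siMETTL3 + LPS on the left and siNC + LPS on the right of each panel, with mean ± SD (n = 3) beside the points and axes from 0. Col1a1, Col3a1, Col5a2, Col8a2, Col14a1 and Col6a2 are lower in every siMETTL3 library, Col4a1 is lower by a smaller margin (448 to 477 against 489 to 558 FPKM) and Col18a1 is higher in every siMETTL3 library (101 to 113 against 70.4 to 78.4 FPKM).

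Of the 4 tested FACIT chains, Col14a1 and Col16a1 were lower, and Col12a1 and Col22a1 did not pass. Col14a1 measured 5.98, 6.39 and 6.81 FPKM in siMETTL3 and 12.5, 11.1 and 13.7 FPKM in siNC libraries, 51.5% of the control and without overlap (-0.86, SE 0.088, limma adjusted p = 0.00565). Col16a1, which associates with several kinds of fibril, measured 5.52, 5.80 and 5.60 FPKM in siMETTL3 and 9.74, 8.17 and 9.80 FPKM in siNC libraries (61.1% of control, -0.62, SE 0.082, limma adjusted p = 0.00996). That call was lost without siMETTL3 replicate 1 (adjusted p = 0.0532) or siNC replicate 1 (0.0523). Col12a1 measured 29.8, 36.9 and 31.8 FPKM in siMETTL3 and 47.4, 39.6 and 60.2 FPKM in siNC libraries. The groups did not overlap, but the SD was 10.4 FPKM in siNC cells, against 3.68 FPKM in siMETTL3 cells, and the chain did not pass (-0.55, SE 0.15, limma adjusted p = 0.0632), though edgeR called it lower (-0.66, adjusted p = 0.0418). Col22a1, known from tissue junctions such as that of muscle and tendon, overlapped at 0.983 to 1.07 FPKM in siMETTL3 and 0.830 to 1.83 FPKM in siNC libraries (-0.12, limma adjusted p = 0.642).

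Of the 6 type IV chains of basement membranes 0 were called by limma, where 4.40% of all genes were called lower (2 were lower at an unadjusted p under 0.05, edgeR called 1 and DESeq2 called 2). The difference between type IV and fibrillar chains was not tested. Over the 6, 2 fold changes were below 0 and 4 above it. Col4a1 and Col4a2, the pair found in nearly all basement membranes, measured 448, 477 and 453 FPKM and 302, 328 and 307 FPKM in siMETTL3 libraries, against 527, 489 and 558 FPKM and 365, 324 and 393 FPKM in siNC libraries. The groups stood apart for Col4a1 and overlapped for Col4a2. Their fold changes were nearly equal, -0.19 (95% interval -0.36 to -0.024, limma adjusted p = 0.123) and -0.20 (-0.40 to -0.0035, adjusted p = 0.153). The edgeR test called Col4a1 lower (-0.27, adjusted p = 0.0487) and not Col4a2 (-0.28, adjusted p = 0.0715).

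The less abundant type IV chains form a second set of networks, best known from the kidney filter (Col4a3, Col4a4 and Col4a5) and from the sheaths of smooth muscle (Col4a5 and Col4a6). Col4a4 measured 31.8 ± 3.04 and 29.3 ± 4.50 FPKM, Col4a5 28.8 ± 1.68 and 26.8 ± 3.37 FPKM, Col4a3 6.42 ± 1.22 and 5.48 ± 1.28 FPKM and Col4a6 3.31 ± 0.356 and 2.61 ± 0.377 FPKM in siMETTL3 and siNC cells (SD, n = 3 each). All 4 overlapped between the groups, with fold changes of 0.12, 0.11, 0.20 and 0.25 and limma adjusted p from 0.162 for Col4a6 to 0.506 for Col4a4. The 95% interval reached down to -0.0021 for Col4a6 and up to 0.61 for Col4a3.

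Type IV genes lie in pairs that are transcribed away from each other, and both members of a pair had fold changes of the same sign. In RefSeq's GRCr8 annotation the starts of Col4a2 and Col4a1 are 77 bases apart on chromosome 16, with the stretch printed above between them, those of Col4a4 and Col4a3 413 bases apart on chromosome 9, and those of Col4a6 and Col4a5 1415 bases apart on the X chromosome. The deposited table uses other gene models and lists 83.6 kb between Col4a2 and Col4a1 and 13.9 kb between Col4a4 and Col4a3. The ratio of Col4a1 to Col4a2 was 1.48, 1.45 and 1.47 in siMETTL3 and 1.44, 1.51 and 1.42 in siNC libraries, so that the 2 groups overlapped within a narrow range. Other chain genes within 200 kb of each other in the table are Col6a1 and Col6a2 (97.9 kb, same strand, chromosome 20), Col3a1 and Col5a2, and 3 pairs among untested genes: Col9a1 and Col19a1, Col6a6 and Col6a5, and Col6a5 and Col6a4.

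Among the remaining types, those of microfibrils and short-chain networks were lower and a multiplexin was higher. Col6a2 and Col6a1, which with other chains build the beaded filaments of type VI around cells, measured 107, 106 and 112 FPKM and 102, 101 and 109 FPKM in siMETTL3 libraries, against 157, 147 and 152 FPKM and 139, 125 and 142 FPKM in siNC libraries. Neither overlapped. Col6a2 stood at 71.4% (-0.48, SE 0.052, limma adjusted p = 0.00610) and Col6a1 at 76.7% of control (-0.38, SE 0.067, limma adjusted p = 0.0215). The Col6a1 call was lost without siMETTL3 replicate 1 (adjusted p = 0.0845), siMETTL3 replicate 2 (0.0605) or siNC replicate 1 (0.0882).

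The largest fall of all tested chains was that of Col8a2, a chain of type VIII, which forms hexagonal networks under endothelia and in the cornea. It measured 1.16, 1.47 and 1.43 FPKM in siMETTL3 and 3.67, 4.29 and 4.11 FPKM in siNC libraries, from 371 to 474 and 1214 to 1386 counts, and stood at 33.6% of control. On the log2(FPKM + 1) scale it fell by 1.09 (SE 0.095, limma, adjusted p = 0.00417). By edgeR, which adds no constant of 1 FPKM, the log2 fold change was -1.65 (adjusted p = 0.00191). The partner chain Col8a1 measured 8.76, 10.5 and 9.69 FPKM in siMETTL3 and 12.1, 12.3 and 14.7 FPKM in siNC libraries (73.9% of control, -0.40, SE 0.095, limma adjusted p = 0.0436), and it was not called when any 1 library was left out (adjusted p 0.0684 to 0.127). Col7a1, the chain of anchoring fibrils beneath epithelia, measured 1.32, 1.48 and 1.48 FPKM in siMETTL3 and 2.61, 2.49 and 2.50 FPKM in siNC libraries (56.4% of control, -0.54, SE 0.081, limma adjusted p = 0.0145, and -0.90 by edgeR). It was lost without siMETTL3 replicate 1 (adjusted p = 0.0651) or siNC replicate 1 (0.0706).

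Col18a1 went the other way. It encodes type XVIII, a proteoglycan of basement membranes whose C-terminal fragment is endostatin, and it measured 101, 113 and 102 FPKM in siMETTL3 and 76.4, 70.4 and 78.4 FPKM in siNC libraries. All siMETTL3 libraries were above all siNC libraries, at 140% of control (0.48, SE 0.067, limma adjusted p = 0.0122). The call was lost without siNC replicate 1 (adjusted p = 0.0559). Col15a1, the related multiplexin, measured 5.80 ± 0.523 FPKM in siMETTL3 and 6.67 ± 0.288 FPKM in siNC cells and did not pass (-0.18, 95% interval -0.36 to 0.0097, limma adjusted p = 0.177). The membrane-spanning Col13a1 measured 5.90 ± 0.466 and 5.78 ± 0.454 FPKM (0.023, 95% interval -0.18 to 0.22), with a sign that turned negative after rescaling the libraries and by both count tests.

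Ratios between chains were compared for 9 pairs, and with 3 libraries against 3 none could reach a permutation p under 0.05. The ratio of Col8a1 to Col8a2 was 7.56, 7.10 and 6.79 in siMETTL3 and 3.31, 2.86 and 3.57 in siNC libraries, that of Col5a1 to Col5a2 0.650, 0.746 and 0.647 and 0.485, 0.462 and 0.551, and that of Col5a3 to Col5a2 0.212, 0.207 and 0.207 and 0.153, 0.155 and 0.148. None of these 3 overlapped between the groups. Col6a1 to Col6a2 stood at 0.957 ± 0.0106 in siMETTL3 and 0.890 ± 0.0435 in siNC cells, and Col4a5 to Col4a6 at 8.74 ± 0.428 and 10.2 ± 0.186 (SD, n = 3 each), both without overlap. The ratios of Col4a1 to Col4a2, Col4a3 to Col4a4 and Col3a1 to Col1a1 overlapped, and that of Col18a1 to Col15a1 was 18.3 ± 2.22 in siMETTL3 and 11.3 ± 1.09 in siNC cells, without overlap. The 9 ratios were picked with the levels known, and 6 reached an exact permutation p of 0.10 (2-sided, adjusted over the 9 to 0.15), the smallest that 3 libraries against 3 can give. That p says only that the libraries of the groups do not overlap, and how often ratios of other genes do so was not counted.

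**Figure D5:**
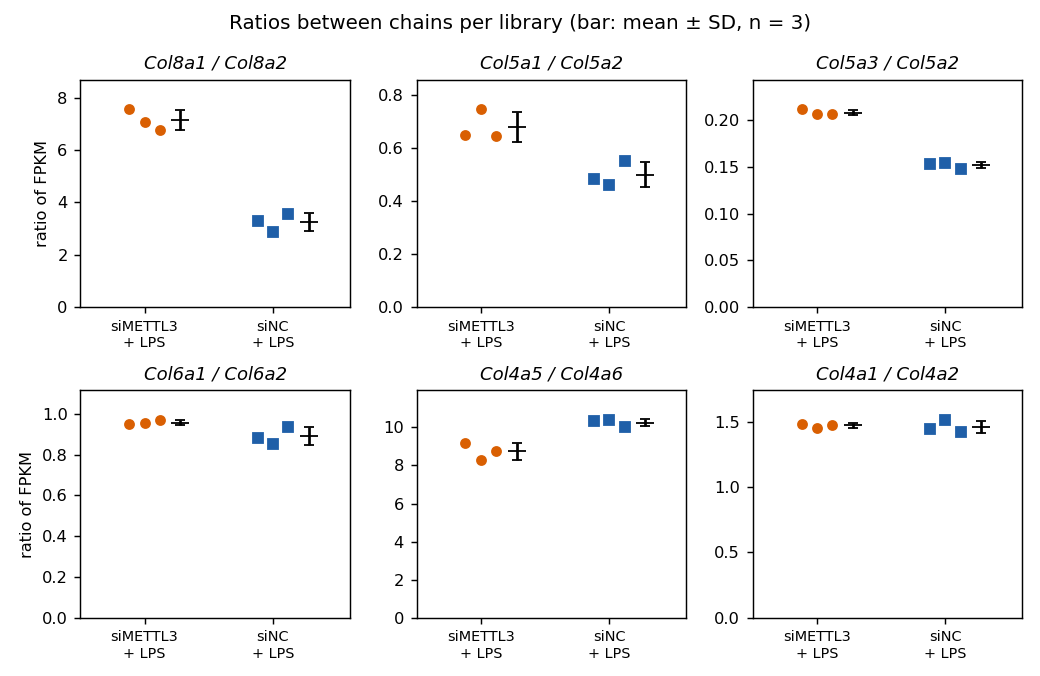
Ratio of the FPKM of 2 chains in each library, siMETTL3 + LPS on the left and siNC + LPS on the right of each panel, with mean ± SD (n = 3) and axes from 0. Col8a1 to Col8a2 is 6.79 to 7.56 in siMETTL3 libraries and 2.86 to 3.57 in siNC libraries, whereas Col4a1 to Col4a2 is 1.45 to 1.48 and 1.42 to 1.51.

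The genes that modify, cut, bind and break down collagen chains were read from 8 lists of 78 symbols, of which 66 genes were tested, 19 lower and 2 higher in siMETTL3 cells (background 4.40% and 6.53%). Their median log2 fold change was -0.11. Among enzymes of hydroxylation and glycosylation 6 of 14 fell and 0 rose, with P3h2, a prolyl 3-hydroxylase that acts on type IV among others, at 7.80 ± 0.196 FPKM in siMETTL3 and 16.9 ± 0.571 FPKM in siNC cells (-1.02, limma adjusted p = 0.00105). The lysyl hydroxylase Plod2 (-0.58) and the prolyl 4-hydroxylase subunit P4ha1 (-0.44) fell too. Of the cross-linking enzymes 3 of 5 fell: Lox (17.6 ± 1.68 and 43.4 ± 2.52 FPKM in siMETTL3 and siNC cells, -1.26, limma adjusted p = 0.00167), Loxl2 (-0.39) and Loxl1 (-0.37). Of 8 chaperones and export factors 0 passed, beside 10.9% of all genes called in either direction (1 was lower at an unadjusted p under 0.05, and edgeR and DESeq2 each called 1 lower). In that list, named after its value was seen, the collagen chaperone Serpinh1 measured 667 ± 35.3 FPKM in siMETTL3 and 695 ± 46.2 FPKM in siNC cells (-0.057, limma adjusted p = 0.651). The fold changes nearest to passing in that list were those of Creb3l1 (-0.22, limma adjusted p = 0.0733), a transcription factor of collagen genes, Sec24d (0.13, 0.203) and Sec23a (0.11, 0.335), subunits of the export coat.

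Of 6 tested propeptide-removing factors 1 rose, Adamts3 (4.46 ± 0.386 and 2.87 ± 0.440 FPKM in siMETTL3 and siNC cells, 0.50, limma adjusted p = 0.0341), and 0 fell, with Tll1 (-0.34, adjusted p = 0.0655) and Adamts14 (-0.20, adjusted p = 0.214) next. Over all genes limma called 4.40% lower. The edgeR test called 1 of the 6 lower, Tll1 (-0.49, adjusted p = 0.0329), DESeq2 called 2 lower, and each called 1 higher. Among 7 proteins that bind fibrils 4 fell: the proteoglycan Bgn (307 ± 16.4 and 471 ± 15.9 FPKM in siMETTL3 and siNC cells, -0.61), Postn (-0.60), Lum (-0.49) and Fn1 (-0.39). In the list of receptors and uptake 1 of 7 passed, Itga11, an integrin subunit for fibrillar collagen (-0.43, limma adjusted p = 0.0207). The discoidin receptor Ddr2 (-0.28, adjusted p = 0.131) and the uptake receptor Mrc2 (-0.18, adjusted p = 0.183) did not. In the list of breakdown enzymes and their inhibitors 7 genes were tested. The gelatinase Mmp2 (-0.62) and its activator Mmp14 (-0.27) fell, and the inhibitor Timp3 did not pass (-0.33, limma adjusted p = 0.0518). By edgeR 4 of the 7 were lower, Timp3 among them (-0.42, adjusted p = 0.0276). Among 12 genes of transforming growth factor beta signalling, which induces collagen genes, 3 fell and 1 rose. Ccn2 (-0.98), a matricellular target of the pathway, and the ligand Tgfb3 (-0.27) were among those lower, and the transducer Smad3 was higher (0.27, limma adjusted p = 0.0297). After median-ratio scaling of the libraries neither Adamts3 nor Smad3 was called. Without siMETTL3 replicates 1, 2 and 3 in turn, 8, 12 and 11 of the 66 were lower, and without siNC replicates 1, 2 and 3, 8, 10 and 16.

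Markers of other cell types were read beside the collagens, and the lists differed in direction. Over all tested genes 4.40% were called lower and 6.53% higher by limma, with a median log2 fold change of 0.067. Of 14 fibroblast markers that are not collagens 5 fell and 0 rose, with Fbln2 (-1.10) and Postn (-0.60) among those of smallest adjusted p, and their median log2 fold change was -0.40. Dcn, Lum, Postn and Ddr2 of this list are also among the partner genes. Of 11 smooth muscle and pericyte markers 4 fell (Cnn1 and Acta2 first, at -0.85 and -0.60), 0 rose and 3 were higher at an unadjusted p under 0.05, with a median log2 fold change of -0.070. The 11 summed to 3395 to 3657 FPKM in siMETTL3 and 4582 to 5183 FPKM in siNC libraries, a sum that rests largely on Acta2 (1577 ± 59.1 and 2386 ± 115 FPKM in siMETTL3 and siNC cells), which fell. Abcc9 (0.47, limma adjusted p = 0.0719) and Kcnj8 (0.28, 0.0609), named after their values were seen, lay on the other side of 0. Of 7 tested macrophage markers 6 fell (C1qb at -1.01 and Cd14 at -0.53 among them), with a median of -0.72. Among 5 endothelial markers Cdh5 (0.51) and Tek (0.36) rose and Egfl7 (-0.45) fell, with a median of 0.10, and among 5 epicardial markers Msln (-0.88) fell, with a median of 0.046. Of 11 cardiomyocyte markers 0 passed by limma (3 were lower at an unadjusted p under 0.05, edgeR called 3 lower and DESeq2 4), with a summed level of 15132 to 17365 FPKM in siMETTL3 and 16812 to 18960 FPKM in siNC libraries, and of 4 Schwann cell markers the 1 tested, S100b, did not pass (0.32, limma adjusted p = 0.218). The part of these markers in the collagen values was not tested.

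The windows that RefSeq holds for gene starts (250 bases before to 50 after, GRCr8) matched 33 of the 42 symbols and 20 of the 26 tested, with Col1a1, Col3a1, Col6a2, Col12a1, Col14a1 and Col22a1 among the genes not matched. On either strand GGGCGG occurred in 6 of the 8 matched chains that were lower, in Col18a1 and in 8 of the 11 that were not called, against 33.1% of all 33469 windows. CCAAT occurred in 2 of the 8, in 0 of 1 and in 2 of 11, against 37.5% of all windows. The TATAA motif occurred in 0, 0 and 2, against 26.2%, and CATTCC, the core bound by TEAD factors, in 0, 0 and 2, against 14.2%. A base may belong to matches of more than 1 motif, a match is a description and not a binding site, and no match says only that these letters are not in the window. Windows of the lower chains ranged in GC content from 47.7% in Col5a2 to 75.0% in Col16a1 (median 63.7%, against 51.7% over all windows). Col5a2 has none of the 4 motifs, and Col8a2 has 5 GC boxes in the stretch printed above (the last 2 overlap). Both were picked with their calls known, and no link between motifs and calls was tested.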

How the data were processed

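Messenger RNA of 6 libraries (3 siMETTL3 with LPS, 3 siNC with LPS) was sequenced from TRIzol-extracted total RNA, per the labels. The deposited table holds FPKM and whole-number counts per gene, which the authors made. Genes with a count of 0 carry 0.0001 FPKM. Bowtie 0.12.2 and mm8, a mouse build, appear in the submitters' processing notes, with no role stated. The table lists rat genes, and its aligner, counter and build are not given in the sources used here. FPKM equalled counts divided by a fixed length per gene and the library total, within 1% for 98.7% of values (14527 genes, 20 counts or more per library). Whether the counts are read counts or derive from coverage cannot be told from this relation. The test had been set for a table of FPKM and was kept, with count tests as alternatives.

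Genes averaging 1 FPKM or more were compared on log2(FPKM + 1), siMETTL3 minus siNC, with limma 3.58.1 in R 4.3.3 (intensity trend, 2-sided, Benjamini-Hochberg adjusted over all tested genes). That scale understates changes of low genes. Alternatives were edgeR 4.0.16, DESeq2 1.42.0, other scalings, filters and pseudocounts, each library left out, and a replicate block. Scripts were checked on simulated counts. The members, classes and lists were chosen with earlier results of these data known. Every chain was to be named, along with up to 3 partner genes per list and up to 2 markers per list of smallest adjusted p. The values of 1 partner gene that the rule names are not reported here.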

Additional observations from a re-analysis of the deposited data

How the results depend on the processing

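The sign of the fold change was the same in every alternative for 23 of the 26 tested chains. Col13a1 (0.023) turned to -0.044 by DESeq2, -0.044 and -0.048 by edgeR with median-ratio and trimmed-mean factors, -0.038 after median-ratio scaling of FPKM, -0.046 after quantile normalization, and ranged over -0.016 to 0.080 with 1 library left out, negative without siMETTL3 replicate 1 (-0.011) or siNC replicate 1 (-0.016). Col22a1 and Col24a1 ranged over -0.26 to 0.056 and -0.20 to 0.010 with 1 library left out, positive only without siNC replicate 3. None of these was called. The 12 lower chains became 17 by DESeq2, 13 or 14 by edgeR, 12 under either rescaling or a pseudocount of 0.1, 10 with a minimum of 5 FPKM, 9 without a filter and 6 to 10 with 1 library left out, and the 1 higher chain became 0 to 1. All tested genes called numbered 1432, against 2394 by DESeq2, 903 without a filter and 206 to 861 with 1 library left out, which lowers power by construction. The split into higher and lower genes was 856 and 576, against 444 and 864 by edgeR, 358 and 781 after median-ratio scaling and 469 and 752 after quantile normalization. Of the partner genes 19 were lower, against 30 by DESeq2, 25 by edgeR, 24 after median-ratio scaling, 19 after quantile normalization, 15 without a filter and 8 to 16 with 1 library left out. Those higher numbered 2, against 1 with a minimum of 5 FPKM, 0 after median-ratio scaling, 1 without a filter, 1 after quantile normalization and 0 to 1 with 1 library left out.

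The replicate numbers gave no sign of pairing: same-numbered libraries deviated from their group means with correlations of 0.035, -0.255 and -0.119. With 3 libraries per group such correlations cannot settle whether the libraries were paired. With replicate number added as a block, calls fell to 6 genes in all, 0 chains lower, 0 chains higher, 1 partner gene lower and 0 partner genes higher.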

Other observations

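Within the siNC group most tested chains had the same highest and the same lowest library. Of the 26 tested chains 21 were highest in siNC replicate 3 and 22 lowest in siNC replicate 2, whereas over all tested genes these libraries were highest in 36.8% and lowest in 39.3%. This order was not particular to collagens. In siNC replicates 1, 2 and 3, Ryr2 (25.2, 19.0 and 36.1 FPKM) and Fn1 (536, 508 and 575 FPKM) had it too. Tagln (1293, 1388 and 1136 FPKM) had the reverse. These 3 genes were picked after their values were seen, and the reason for the order was not tested. In the siMETTL3 group 16 chains were highest in replicate 2 and 18 lowest in replicate 1, against 42.6% and 30.8% of all tested genes.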
